A study of Mus musculus with 12 samples.

Results

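The fat synthesis and lipid droplet genes of the mouse liver are described here, a set of 35 genes chosen by name for their part in making fatty acids, building triglyceride, coating and emptying lipid droplets, and taking up or carrying lipid, together with their regulators. Of the 35 genes, 34 were in the table of 17871 genes and 33 had enough reads to be tested among 12896 genes. Mogat1, a monoacylglycerol acyltransferase gene, was too low to test (0 to 0.31 RPKM), and Cidea was not analysed here. RNA of the liver of male ICR mice, 3 weeks old at the start, was sequenced in 12 libraries, 3 in each of 4 groups. A0 mice received water, and A10 mice received alginate oligosaccharides (AOS, short sugar chains from seaweed) at 10 mg/kg. BA0 and BA10 mice received the alkylating drug busulfan once at 40 mg/kg by intraperitoneal injection, followed by water in BA0 and by AOS at 10 mg/kg in BA10. All mice were gavaged daily for 5 weeks. The sources used here do not state whether a library holds 1 mouse or several, so the p-values measure the spread between libraries. An injection of the A0 and A10 mice without busulfan is not mentioned in the sources used here. In whole liver, fewer cells of a type and less RNA per cell cannot be told apart.

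The liver makes fatty acids from acetyl-CoA when food is plentiful. ATP citrate lyase (Acly) and acyl-CoA synthetase (Acss2) supply acetyl-CoA, acetyl-CoA carboxylases (Acaca, Acacb) and fatty acid synthase (Fasn) turn it into palmitate, and elongases and desaturases modify the chain. Acyltransferases and lipins join the chains to glycerol, and the triglyceride is stored in droplets coated by perilipins or leaves in lipoproteins. Insulin and glucose raise the program through the transcription factors encoded by Srebf1 and Mlxipl, whereas fasting lowers it and raises lipolysis.

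Promoters of 30 of the 34 genes were matched in RefSeq (build GRCm38.p6), as 40 windows of 250 bases before to 50 after a start site. A CCAAT box, bound in general by NF-Y, which acts together with SREBP factors at lipogenic genes, was searched as CCAAT. It was present in at least 1 window of 20 of the 30 genes (66.7%), compared to 41.1% of all genes. An E-box, CACGTG, the core bound by bHLH factors such as USF, was present in 4 genes (13.3%, compared to 8.09% of all genes). The sterol response element core TCACNCCAC was present in 1 gene (3.33%, compared to 1.44%). Direct repeats of AGGTCA with 1 or 4 bases between the copies, letters of nuclear receptor sites, were present in 0 of the 30 genes (0.0481% and 0.0148% of all genes). All motifs were searched on both strands. The 4 windows printed here show these letters and belong to genes used in the results, namely Fasn and Thrsp of fatty acid synthesis, which varied widely within groups, Elovl5, an elongase whose window holds both CCAAT and CACGTG, and Mfsd2a, which had the largest fold change of the 33 genes against A0. They are printed 5′ to 3′ on the strand of the gene, with CCAAT, its reverse complement ATTGG and CACGTG in capitals.
Fasn, chr11:120824498-120824797, minus strand: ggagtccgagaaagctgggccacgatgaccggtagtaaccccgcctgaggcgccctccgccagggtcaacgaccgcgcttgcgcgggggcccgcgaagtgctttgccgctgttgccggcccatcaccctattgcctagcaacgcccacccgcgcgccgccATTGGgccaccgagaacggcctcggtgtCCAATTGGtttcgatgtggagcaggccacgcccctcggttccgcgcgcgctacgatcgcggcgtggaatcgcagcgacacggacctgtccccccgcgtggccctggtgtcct
Thrsp, chr7:97417501-97417800, minus strand: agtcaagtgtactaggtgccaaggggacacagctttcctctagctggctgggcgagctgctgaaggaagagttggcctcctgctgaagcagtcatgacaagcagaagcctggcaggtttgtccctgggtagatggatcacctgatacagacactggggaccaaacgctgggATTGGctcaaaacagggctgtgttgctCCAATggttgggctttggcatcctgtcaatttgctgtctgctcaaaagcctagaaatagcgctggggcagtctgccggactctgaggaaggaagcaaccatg
Elovl5, chr9:77917115-77917414, plus strand: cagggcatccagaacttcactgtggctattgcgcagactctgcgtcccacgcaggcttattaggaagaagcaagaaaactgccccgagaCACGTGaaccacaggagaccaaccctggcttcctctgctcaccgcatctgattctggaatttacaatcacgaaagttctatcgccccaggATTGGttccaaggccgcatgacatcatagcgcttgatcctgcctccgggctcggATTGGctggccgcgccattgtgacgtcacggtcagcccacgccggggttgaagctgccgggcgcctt
Mfsd2a, chr4:122961139-122961438, minus strand: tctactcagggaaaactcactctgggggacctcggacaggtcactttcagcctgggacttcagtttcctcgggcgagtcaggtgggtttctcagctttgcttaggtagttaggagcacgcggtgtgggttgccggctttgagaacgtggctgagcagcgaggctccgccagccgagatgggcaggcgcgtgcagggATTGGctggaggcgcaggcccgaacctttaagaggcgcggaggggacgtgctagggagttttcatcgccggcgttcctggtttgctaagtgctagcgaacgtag
The first base of the CCAAT letters lay at -90, -62 and -59 from the start site in Fasn, where the second and the third copy are on opposite strands and overlap. It lay at -79 and -52 in Thrsp, at -71 and -17 in Elovl5 and at -54 in Mfsd2a, and the E-box of Elovl5 lay at -161. These matches describe letters in a window and are no evidence of binding.

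The libraries held 16439485 to 18174565 reads (estimated counts, rounded to whole numbers). Levels within a gene are given as TMM-scaled CPM, which corrects for library size, and levels between genes as RPKM, which corrects for gene length as well. All 11 hepatocyte markers were detected, with a summed level of 89100 to 120000 CPM, most of it Alb (56000 to 85500 CPM). Of the 11, Cebpa and Apoa1 were called lower in BA0 vs A0 (18.2%, compared to 6.38% of all genes). In BA10 vs A0 Tat and Cps1 were called higher and Cebpa, Apoa1 and Apoa2 lower (45.5%, compared to 10.1%). Averaged over water and AOS, Tat was called higher and Cebpa lower (18.2%, compared to 3.27%). The A0 libraries stood apart. Gene length and GC content accounted for 26.1% of the variance of A0 replicate 1 and 18.7% of that of A0 replicate 2, while the other 10 libraries had 0.4% to 7.8%. Scgb1a1, a lung epithelium gene, was at 0 to 0.121 CPM in the A0 libraries and at 3.65 to 5.99 CPM in the 9 others, and the 8 lung genes summed to 0.669 to 1.39 CPM in A0 and to 6.66 to 10.3 CPM elsewhere. BA0 replicate 2 held 351 CPM of 12 pancreatic acinar genes (13.6 to 29.5 CPM in the others), 9 Adipoq reads (0 or 1 in the others) and 6 Plin1 reads (0 in the others). Of the 5 tested adipocyte and 5 tested enterocyte genes the ones called were Lipe, Fabp4 and Apob, which the liver also expresses and which are given with the fat pathway. For the 33 genes, calls with the trends removed therefore stand beside the calls against A0, as do the counts for the endothelial, fasting and clock lists, and the part of these differences in the results was not tested otherwise. BA0 vs A0, A10 vs A0 and BA10 vs A0 share the A0 libraries as controls, so their values are not independent.

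The question for the 33 genes was whether busulfan, AOS or both moved the program. In BA0 compared to A0, Cd36, Mfsd2a and Plin4 rose, and Angptl8 and Agpat2 fell. These 5 genes were 15.2% of the 33, compared to 6.38% of all genes tested (4.09% higher and 2.3% lower). The median log2 fold change of the 33 genes was 0.05 (0.03 over all genes), with 17 positive and 16 negative values. With upper-quartile factors or with DESeq2 the split was 3 higher and 4 lower, since Dgat1 and Pnpla2 were also called. The split over all genes moved as well, from 527 higher and 296 lower to 415 and 679 with upper-quartile factors. With DESeq2 it was 872 and 774 of 17820 genes. In 10 of the 33 genes (30.3%) the 3 BA0 libraries did not overlap the 3 A0 libraries, compared to 34.2% of all genes. Leaving out A0 replicate 1, A0 replicate 2, BA0 replicate 2 or BA0 replicate 3 left 0 of the 33 genes called, and leaving out BA0 replicate 1, BA10 replicate 1 or BA10 replicate 3 left 3. Over all genes 2 were called higher and 2 lower without A0 replicate 1, and as many without A0 replicate 2. Without BA0 replicate 2 these counts were 23 and 7, and without BA0 replicate 3 they were 8 and 4. With all 12 libraries they were 527 and 296.

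In A10 compared to A0, whose treatments differ by AOS alone, Cd36 rose and Agpat2 fell. These were 6.06% of the 33 genes, compared to 3.64% of all genes (2.14% higher and 1.5% lower), and the median was -0.06. In 5 genes (15.2%, compared to 26% of all genes) the groups did not overlap. Both genes had moved the same way in BA0, and the comparisons share the A0 libraries. None of these calls, in BA0 or in A10, remained after removal of the length and GC trends, where 7 of the 33 genes in BA0 and 4 in A10 had an unadjusted p under 0.05. Over all genes only 0.353% and 0.0164% were called after that removal. In A10 vs A0, leaving out any library but A0 replicate 3 left 0 called. Over all genes these fits called 1 to 7 higher and 0 or 1 lower, compared to 276 and 193 with all 12 libraries.

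In BA10 compared to BA0, which asks what AOS did after busulfan, edgeR called 0 of the 33 genes, and DESeq2 and limma voom called 0 as well. At an unadjusted p under 0.05 there were 2 genes, Lpin2 (log2 fold change 0.49, SE 0.15, adjusted p = 0.857) and Fads2 (-0.33, SE 0.11, adjusted p = 0.98). Over all genes 0.0543% were called in this comparison (0.0465% higher and 0.00775% lower). Only Fads1 and Fads2, fatty acid desaturases, had groups that did not overlap (6.06%, compared to 10.8% of all genes). The BA0 libraries held 434, 399 and 393 CPM of Fads2, and the BA10 libraries 345, 311 and 320 CPM. The interval of the difference for Fads2 was -0.58 to -0.08, and for Fasn -1.03 to 1.14, an interval that spans a log2 change of 1 in both directions.

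In BA10 compared to A10, which asks for busulfan among mice given AOS and contains no A0 library, edgeR called 0 of the 33 genes (0.124% of all genes, 0.0931% higher and 0.031% lower) and limma voom 0, while DESeq2 called Lpin1. Over all genes DESeq2 called 120 higher and 36 lower of 17820 there. At an unadjusted p under 0.05 from edgeR were Lpin1, G0s2 and Lpin2, which were also the 3 genes without overlap between the groups (9.09%, compared to 13.5% of all genes). In BA10 compared to A0, where both agents separate the groups, 8 genes were called, 24.2% compared to 10.1% of all genes (6.95% higher and 3.19% lower). Cd36, Mfsd2a, Plin4, Lpin1 and Lpin2 rose, and Angptl8, G0s2 and Agpat2 fell. With upper-quartile factors 4 were higher and 4 lower, and over all genes 645 were higher and 872 lower. The groups did not overlap in 14 genes (42.4%, compared to 34.9%). After removal of the trends only Cd36 and Mfsd2a of the 33 genes were called, compared to 3.88% of all genes. Without A0 replicate 1, A0 replicate 2 or BA10 replicate 3 the call of Cd36 alone was left in BA10 vs A0, without BA10 replicate 1 or 2 there were 2 calls, and without A0 replicate 3 there were 5. Over all genes 896 were called higher and 411 lower with all 12 libraries. Without A0 replicate 1, A0 replicate 2 or BA10 replicate 3, 210, 199 and 290 were higher and 51, 43 and 58 lower. Without BA10 replicate 1 or 2, 202 and 511 were higher and 52 and 144 lower, and without A0 replicate 3, 1337 and 818.

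Averaged over water and AOS, with 6 busulfan libraries against 6 others, Cd36, Mfsd2a, Plin4 and Lpin1 rose and Angptl8 and G0s2 fell. They were 18.2% of the 33 genes, compared to 3.27% of all genes (2.43% higher and 0.845% lower), and the median was 0.06. In 0 genes did the 6 libraries of each side not overlap (1.38% of all genes). After removal of the trends Lpin1 and Mfsd2a of the 33 genes remained called, compared to 2.32% of all genes. Leaving out A0 replicate 1 or 2, A10 replicate 2 or BA10 replicate 3 left 0 calls, leaving out A10 replicate 1, BA0 replicate 3 or BA10 replicate 2 left 1, leaving out BA10 replicate 1 left 2, and leaving out BA0 replicate 1 or 2 left 3. Over all genes the fits that left 0 calls had 73 to 102 higher and 17 to 27 lower. With all 12 libraries there were 313 and 109. When the busulfan libraries were set against A10 alone, an alternative chosen after seeing the data, 0 of the 33 genes were called by edgeR (0.00775% of all genes), with Lpin1 and G0s2 at an unadjusted p under 0.05. The AOS effect with busulfan minus that without it was called for 0 of the 33 genes (0.0543% of all genes, 0.031% higher and 0.0233% lower) by edgeR, DESeq2 and limma voom. At an unadjusted p under 0.05 were Agpat2 (0.58), Cd36 (-1.02), Plin4 (-0.85), Mfsd2a (-2.43) and Angptl8 (1.30), with adjusted p values of 0.204 to 0.313.

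**Figure D1:**
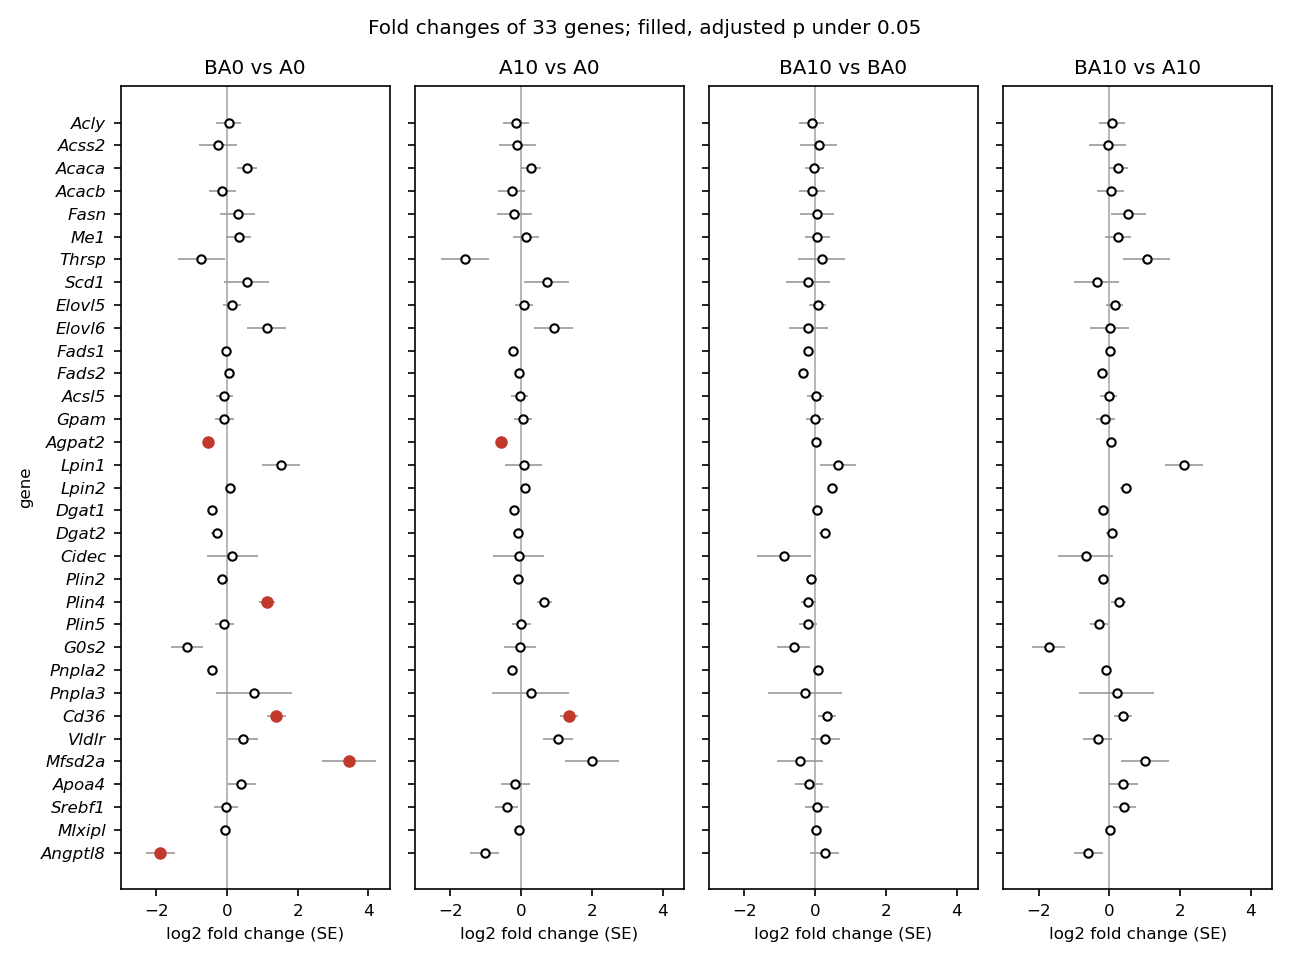
Log2 fold change (x axis) of the 33 genes tested (y axis) in 4 comparisons, with SE bars, from the edgeR fit over 12 libraries with 3 libraries a group. Filled red points had an adjusted p under 0.05, 5 genes in BA0 vs A0, 2 in A10 vs A0 and 0 in the other comparisons.

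**Figure D2:**
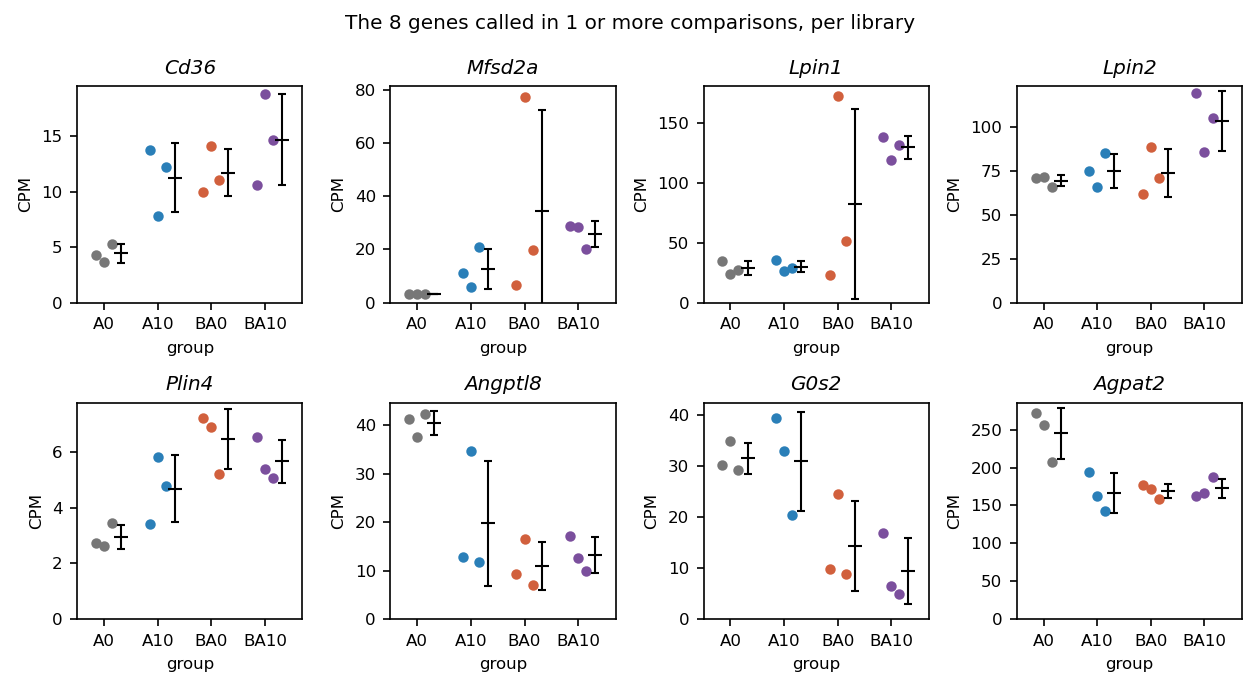
CPM (y axis, from 0) of the 8 genes called in 1 or more comparisons, by group (x axis). Each point is 1 library, and the bars give the mean and SD of 3 libraries (the lower bar of Mfsd2a in BA0 is cut at 0). The A0 libraries lie lowest for Cd36 and Mfsd2a and highest for Agpat2, and 1 BA0 library, replicate 2, is far above the others of its group for Mfsd2a and Lpin1.

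The 7 genes of fatty acid synthesis (Acly, Acss2, Acaca, Acacb, Fasn, Me1 and Thrsp) were called in none of the 7 contrasts. Thrsp, a cofactor-like protein that raises lipogenesis and is induced by thyroid hormone and feeding, had the highest mean level of the group (157 RPKM). Thrsp was at 383, 171 and 153 CPM in A0, at 148, 68.3 and 17.5 in A10, at 81, 229 and 120 in BA0 and at 192, 76.8 and 218 in BA10. The A10 libraries were all below the A0 libraries, and A10 replicate 3 was the lowest of the 12. Its log2 fold change in A10 vs A0 was -1.59 (SE 0.68, adjusted p = 0.175), the smallest adjusted p of the group. Fasn was at 587, 315 and 371 CPM in A0, at 714, 254 and 150 in A10, at 380, 773 and 414 in BA0 and at 556, 385 and 683 in BA10. The 4 groups overlapped for Fasn, and its log2 fold changes were 0.30 in BA0 vs A0 (SE 0.50) and 0.05 in BA10 vs BA0 (SE 0.49). In BA0 vs A0 the group ranged from -0.72 (Thrsp) to 0.56 (Acaca), and in BA10 vs BA0 from -0.10 (Acly) to 0.18 (Thrsp). Acaca was one of the genes without overlap between BA0 and A0 (79.4 to 105 CPM in A0 and 106 to 178 CPM in BA0, adjusted p = 0.212).

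The 5 genes of elongation and desaturation were called in none of the contrasts either. Scd1, stearoyl-CoA desaturase, which makes oleate, was the most abundant of the 33 genes (1410 RPKM). It was at 3310, 4290 and 6910 CPM in A0, at 14900, 6510 and 2400 in A10, at 2490, 13500 and 5340 in BA0 and at 5300, 6580 and 6730 in BA10. The highest and the lowest library of the 12 were both in A10. The log2 fold changes of Scd1 were 0.56 in BA0 vs A0 (SE 0.64, adjusted p = 0.587) and -0.20 in BA10 vs BA0 (SE 0.63). Elovl6, which elongates palmitate, had the largest positive value, 1.12 in BA0 vs A0 (adjusted p = 0.209), with 32.7 to 58.5 CPM in A0 and 58.9 to 155 CPM in BA0. Fads2 had the smallest adjusted p of the group, 0.134 in BA10 vs A0 (-0.27).

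The 33 genes varied widely between libraries of the same group. The SD of log2 CPM within groups had a median of 0.47 over the 33 genes and of 0.21 over all genes tested, and 14 of the 33 genes were in the top 10% of all genes (an SD over 0.57) and 21 in the top 25%. Pnpla3, a droplet-associated lipase that is induced by feeding, had the largest SD, 1.67, larger than in 99.2% of all genes. It was at 7.29, 2.51 and 4.96 CPM in A0, at 15.3, 2.06 and 0.404 in A10, at 1.16, 19.7 and 4.24 in BA0 and at 8.99, 3.31 and 8.38 in BA10, a 48.8-fold range. Thrsp (1.02), Mfsd2a (1), Scd1 (0.94), Cidec (0.88), Acss2 (0.82), Elovl6 (0.80) and Fasn (0.71) followed, with Lpin1 at 0.75. In contrast, Dgat1, Fads1 and Fads2 had an SD of 0.13 each.

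The spread was shared among the genes and followed individual libraries. Of the 12 genes of synthesis, elongation and desaturation, 12 were above their group mean in A10 replicate 1 (median log2 deviation 0.93) and 0 in A10 replicate 3 (-1.05). In BA0 replicate 2, 11 of the 12 were above (0.34), and in BA0 replicate 1, 2 were (-0.35). A10 replicate 3 was the lowest of the 12 libraries for 15 of the 33 genes, A10 replicate 1 the highest for 11 and BA0 replicate 2 the highest for 9. These counts were not made over all genes, so whether they are particular to these genes was not tested. A10 replicates 1 and 3 also differed the most of all same-group pairs in a sum over genes that was not limited to this set but included it. The chi-square of their raw counts per degree of freedom was 104, compared to 22.9 to 88 in the other pairs. Abundant genes weigh most in this value. A10 replicate 3 was also the A10 library with the highest summed level of 20 genes of the fasting and insulin response (6380 CPM, compared to 4290 and 4520 CPM in the other A10 libraries). In that library Pck1, the gluconeogenic enzyme that rises in fasting, was at 1880 CPM (609 and 601 CPM in the other two). In BA0 the order was the other way. BA0 replicate 2, with 11 of the 12 genes above the group mean, had the highest fasting sum of its group (5280 CPM), and BA0 replicate 1, with 2 of 12 above, the lowest (4490 CPM, and 4860 CPM in replicate 3). The part of feeding in this spread was not tested, and the sources used here do not state whether the mice were fed at collection.

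**Figure D3:**
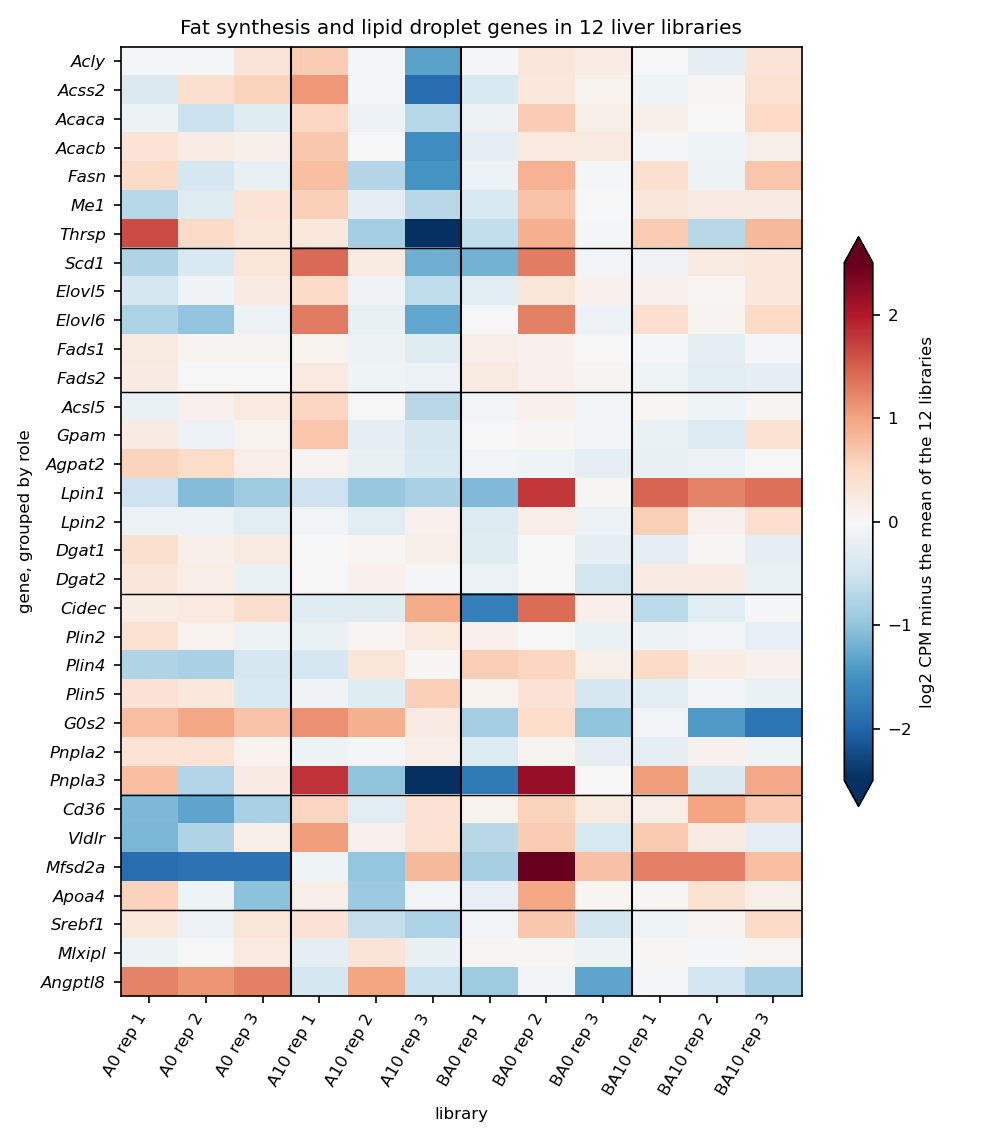
Log2 CPM minus the mean of the 12 libraries (color) for the 33 genes tested (y axis, grouped by role) in each library (x axis, 3 libraries in each of 4 groups). The fatty acid synthesis genes are blue in A10 replicate 3 and red in A10 replicate 1, within the same group. Cd36 and Mfsd2a are blue in the 3 A0 libraries, and Angptl8 is red there.

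**Figure D4:**
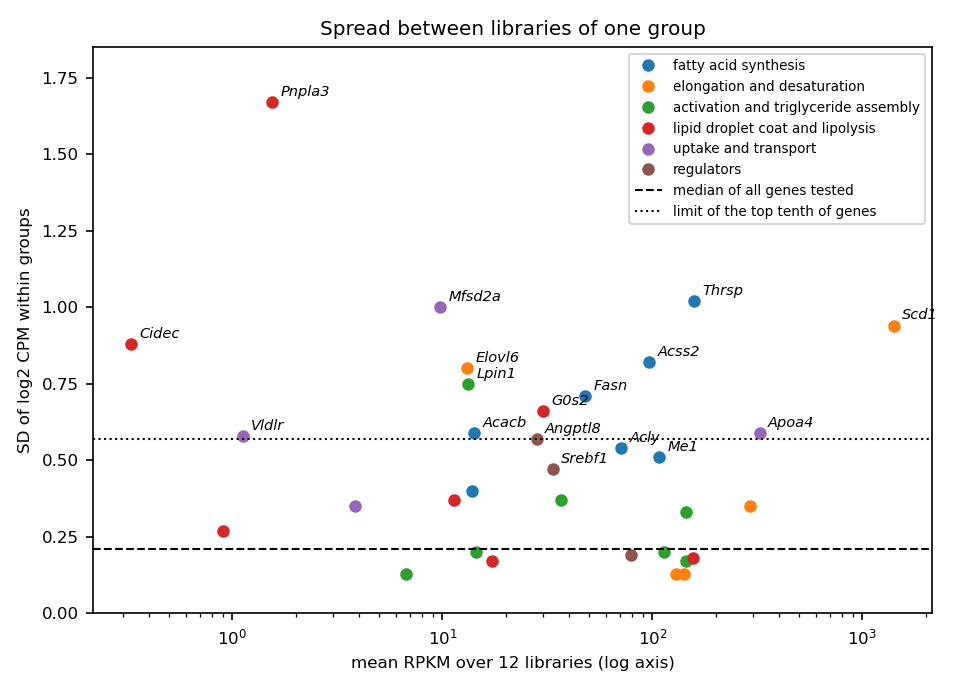
SD of log2 CPM between libraries of the same group (y axis) against the mean RPKM of the 12 libraries (x axis, log scale) for the 33 genes, colored by role. The dashed line is the median of all genes tested (0.21) and the dotted line the limit of the top 10% (0.57), which 14 of the 33 genes reached, with Pnpla3 the highest at 1.67.

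Among the 7 tested genes of fatty acid activation and triglyceride assembly, Agpat2 fell and Lpin1 and Lpin2 rose, while Acsl5, Gpam, Dgat1 and Dgat2 were not called in any contrast. Agpat2 (gene 67512, chromosome 2, 26593057 to 26604417 of mm10) makes phosphatidic acid from lysophosphatidic acid and, with Acsl5, had the highest mean level of the group (145 RPKM). Agpat2 was at 272, 256 and 207 CPM in A0, at 194, 162 and 142 in A10, at 177, 172 and 159 in BA0 and at 163, 167 and 187 in BA10. All 9 libraries of the other groups were below the A0 libraries, and those 3 groups overlapped. Against A0 the log2 fold change was -0.53 in BA0 vs A0 (SE 0.13, adjusted p = 0.0431), -0.56 in A10 vs A0 (SE 0.13, adjusted p = 0.046) and -0.51 in BA10 vs A0 (SE 0.13, adjusted p = 0.0373). Between BA10 and BA0 it was 0.03 (interval -0.26 to 0.31).

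The Agpat2 calls were kept in 9 (BA0), 6 (A10) and 9 (BA10) of 21 alternatives. The 21 do not include the stricter limits of the paper, at which all 3 calls were lost. With the trends removed its values were -0.25, -0.25 and -0.22 (adjusted p = 0.267, 0.386 and 0.274). Leaving out A0 replicate 1 or 2, A10 replicate 2, or any 1 of the BA0 or BA10 libraries ended the call in both busulfan comparisons, as did leaving out any library but A0 replicate 3 in A10 vs A0, and fitting only the groups compared ended all 3, as leaving out the filter ended that of A10 vs A0 (adjusted p = 0.0505 to 0.762 over the alternatives that ended a call).

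Lpin1 (gene 14245, chromosome 12, 16535669 to 16610966) encodes lipin 1, a phosphatidic acid phosphatase that also acts as a coactivator and is induced in the fasting liver. It was at 34.9, 23.8 and 27 CPM in A0, at 35.1, 26.2 and 28.4 in A10, at 23.2, 172 and 51.4 in BA0 and at 138, 119 and 131 in BA10. The 3 BA10 libraries were above all A0 and A10 libraries, and BA0 spanned both levels, with replicate 1 the lowest and replicate 2 the highest of the 12. On the log2 scale the difference was 2.18 in BA10 vs A0 (SE 0.53, adjusted p = 0.0312) and 1.82 for busulfan averaged over water and AOS (SE 0.37, adjusted p = 0.0289). It was 1.53 in BA0 vs A0 (SE 0.53, adjusted p = 0.09), 0.07 in A10 vs A0 (SE 0.52) and 2.11 in BA10 vs A10 (SE 0.53, adjusted p = 0.19 from edgeR), a value that DESeq2 called and that edgeR called without BA0 replicate 2. Over all genes in BA10 vs A10, DESeq2 called 120 higher and 36 lower. There edgeR called 16 and 4 without BA0 replicate 2, compared to 12 and 4 with all 12 libraries.

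Without the trends the averaged value of Lpin1 was 1.72 (adjusted p = 0.0385) and that of BA10 vs A0 was 2.00 (adjusted p = 0.0621). The averaged call was lost without A0 replicate 1 or 2, A10 replicate 1 or 2, BA10 replicate 1 or 3, and against A10 alone (1.79, adjusted p = 0.329), its value was 1.25 without BA0 replicate 2 (adjusted p = 0.0193), and the call of BA10 vs A0 was lost without any 1 of the A0 or BA10 libraries (adjusted p = 0.0502 to 0.417 over the alternatives that ended it).

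Lpin2 (gene 64898, chromosome 17, 71182560 to 71249817), another lipin of the liver, was at 70.7, 71.2 and 65.8 CPM in A0, at 74.9, 65.4 and 84.7 in A10, at 61.7, 88.4 and 70.8 in BA0 and at 119, 85.3 and 105 in BA10. BA10 was above A0 and A10 in every library and overlapped BA0. The log2 fold change was 0.58 in BA10 vs A0 (SE 0.15, adjusted p = 0.0391), 0.46 in BA10 vs A10 (adjusted p = 0.352) and 0.49 in BA10 vs BA0 (adjusted p = 0.857). The call was lost after removal of the trends (0.37, adjusted p = 0.191), with upper-quartile factors, and without any 1 A0 library, A10 replicate 1, BA0 replicate 3, or BA10 replicate 1 or 3 (adjusted p = 0.0503 to 0.4 over the alternatives that ended it). Dgat1, which adds the last acyl chain to triglyceride, was the nearest to a call among the other genes, with -0.42 in BA0 vs A0 (SE 0.12, adjusted p = 0.0596) and 8.74 to 10.7 CPM in BA0 compared to 11.8 to 14.2 CPM in A0.

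Among the 7 tested genes of the droplet coat and of lipolysis, Plin4 rose and G0s2 fell, and Cidec, Plin2, Plin5, Pnpla2 and Pnpla3 were not called. Plin4 (gene 57435, chromosome 17, 56100591 to 56109803), a perilipin best known from adipocytes, was low (0.906 RPKM on average, compared to 156 RPKM for Plin2). It was at 2.74, 2.64 and 3.45 CPM in A0, at 3.42, 5.82 and 4.79 in A10, at 7.22, 6.9 and 5.22 in BA0 and at 6.54, 5.38 and 5.07 in BA10. The busulfan groups did not overlap A0, and A10 lay between and overlapped both. Plin4 had a log2 fold change of 1.13 in BA0 vs A0 (SE 0.22, adjusted p = 0.0255), 0.94 in BA10 vs A0 (SE 0.22, adjusted p = 0.0279), 0.70 averaged over water and AOS (SE 0.15, adjusted p = 0.0368) and 0.66 in A10 vs A0 (SE 0.22, adjusted p = 0.102). Against A10 alone the averaged value was 0.37 (adjusted p = 0.694).

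With the trends removed the 3 called values of Plin4 were 1.03, 0.87 and 0.64 (adjusted p = 0.0682, 0.0621 and 0.0614). The calls were lost without A0 replicate 1 or 2, without any 1 library of the busulfan group compared, in BA0 vs A0 with only the groups compared, and, for the average, also without A10 replicate 1 or 2 (adjusted p = 0.0509 to 0.694 over the alternatives that ended a call). The defining adipocyte markers were near 0, with Adipoq at 0 or 1 read in 11 libraries and at 9 in BA0 replicate 2, and Lep at 0 in 11 libraries and at 1 read in that library. Their part in the level of Plin4 was not tested.

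G0s2 (gene 14373, chromosome 1, 193272161 to 193273217) encodes an inhibitor of the triglyceride lipase ATGL, the product of Pnpla2. G0s2 was at 30.2, 35 and 29.3 CPM in A0, at 39.4, 33 and 20.4 in A10, at 9.78, 24.6 and 8.77 in BA0 and at 16.9, 6.57 and 5.01 in BA10. All 6 busulfan libraries were below the A0 libraries, and only BA0 replicate 2 was above the lowest A10 library. The log2 fold change was -1.74 in BA10 vs A0 (SE 0.47, adjusted p = 0.0422) and -1.42 averaged over water and AOS (SE 0.33, adjusted p = 0.0439), while it was -0.03 in A10 vs A0 (SE 0.45). It was -1.13 in BA0 vs A0 (adjusted p = 0.138) and -1.71 in BA10 vs A10 (SE 0.47, adjusted p = 0.237).

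Without the trends the values of G0s2 were -1.42 in BA10 vs A0 (adjusted p = 0.112) and -1.28 averaged (adjusted p = 0.0652), and against A10 alone the value was -1.41 (adjusted p = 0.331). The calls were lost without A0 replicate 1 or 2, A10 replicate 2, or BA10 replicate 2 or 3, and the average also without A10 replicate 1 or BA0 replicate 1 or 3 (adjusted p = 0.0569 to 0.416), while without BA10 replicate 1 the value of BA10 vs A0 was -2.46. Pnpla2 itself was at 45 to 54.1 CPM in A0 and at 33.6 to 44.8 CPM in BA0, a log2 fold change of -0.42 (adjusted p = 0.074). Plin2, the main coat gene of liver droplets, was at 248 to 357 CPM in A0 and at 236 to 260 CPM in BA10, with -0.27 as the log2 fold change (adjusted p = 0.232).

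Of the 4 genes of uptake and transport, Cd36 and Mfsd2a rose, and Vldlr and Apoa4 were not called. Cd36 (gene 12491, chromosome 5, 17781690 to 17888801) encodes a fatty acid translocase of the plasma membrane that hepatocytes, endothelial cells and macrophages can carry. It was at 4.28, 3.71 and 5.33 CPM in A0, at 13.8, 7.82 and 12.2 in A10, at 10, 14.1 and 11.1 in BA0 and at 10.6, 18.8 and 14.7 in BA10. The 9 libraries of the other groups were all above the A0 libraries and overlapped one another. Cd36 had a log2 fold change of 1.40 in BA0 vs A0 (SE 0.26, adjusted p = 0.0235), 1.35 in A10 vs A0 (SE 0.26, adjusted p = 0.0404), 1.73 in BA10 vs A0 (SE 0.26, adjusted p = 0.00588) and 0.89 averaged over water and AOS (SE 0.18, adjusted p = 0.0269). Against A10 alone the busulfan value was 0.22 (adjusted p = 0.87), and in BA10 vs BA0 it was 0.33 (interval -0.22 to 0.87).

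The call of Cd36 in BA10 vs A0 was the most stable of all. It was kept in 20 of 21 alternatives, including the removal of the trends (1.43, adjusted p = 0.016). Among these 21 it was lost only when A0 replicates 1 and 2 were left out together. The 21 do not include the stricter limits of the paper. The call was lost there too, since its adjusted p of 0.00588 was above the limit on the adjusted p. The other calls of Cd36 were lost after removal of the trends (1.08, 1.02 and 0.74 in BA0 vs A0, A10 vs A0 and the average, adjusted p = 0.0889, 0.207 and 0.0546) and without A0 replicate 1 or 2, BA0 replicate 2 or 3, BA10 replicate 2 or 3 or A10 replicate 2 for the average, in BA0 vs A0 without any 1 of those A0 and BA0 libraries, and without any library but A0 replicate 3, with limma voom, without a filter and with only the groups compared in A10 vs A0 (adjusted p = 0.0509 to 0.87 over the alternatives that ended a call).

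The summed level of endothelial cell markers, like Cd36, was lowest in the A0 libraries. Single markers did not all follow the sum, since Vwf, Gpihbp1, Lyve1 and Cd34 overlapped between A0 and other groups. Vwf, for example, was at 3.81, 5.59 and 4.3 CPM in A0 and at 5.14, 3.62 and 2.42 CPM in BA10. The 13 endothelial genes summed to 157 to 166 CPM in A0, 216 to 304 CPM in A10, 246 to 309 CPM in BA0 and 284 to 368 CPM in BA10, so that no A0 library overlapped the others. Of the 13, 5 rose in BA0 vs A0, 5 in A10 vs A0, 10 in BA10 vs A0 and 0 in BA10 vs BA0 (3 at an unadjusted p under 0.05). The shares against A0 were 38.5%, 38.5% and 76.9%, compared to 6.38%, 3.64% and 10.1% of all genes. After removal of the trends the counts against A0 were 2, 0 and 9 (0.353%, 0.0164% and 3.88% of all genes). Without A0 replicate 1 they were 0, 0 and 5, and without A0 replicate 2 they were 0, 0 and 4. Over each of the 12 libraries left out in turn they ranged from 0 to 8, from 0 to 4 and from 4 to 11. The counts over all genes moved in these fits as well. Without A0 replicate 2 they were 2 higher and 2 lower, 1 and 0, and 199 and 43 in the same 3 comparisons. Without A0 replicate 3 they were 1125 and 751, 986 and 689, and 1337 and 818. Kdr, a receptor of vascular growth factor, had a log2 fold change of 0.89 in BA0 vs A0 (adjusted p = 0.0154), and 0.65 with the trends removed (adjusted p = 0.0281). Stab2, a scavenger receptor of sinusoidal endothelium, had 0.80 (adjusted p = 0.0259), and 0.62 with the trends removed (adjusted p = 0.0667). Of the 12 Kupffer cell genes edgeR called 0 in each of the 7 contrasts (0 or 1 at an unadjusted p under 0.05), and they summed to 178 to 307 CPM in A0 and 213 to 466 CPM in the others. The part of endothelial RNA in the level of Cd36 was not tested.

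**Figure D5:**
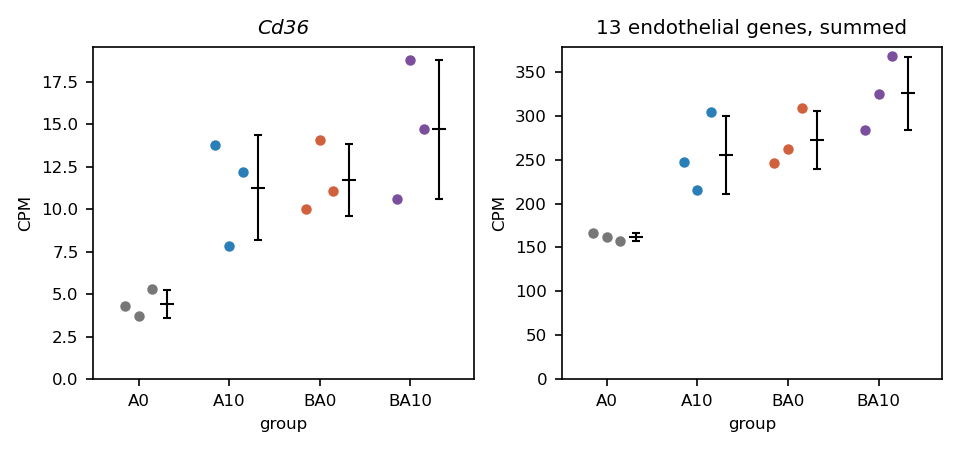
CPM (y axis, from 0) of Cd36 and of 13 endothelial marker genes summed, by group (x axis). Each point is 1 library and the bars give the mean and SD of 3 libraries. In both panels the 3 A0 libraries lie below the 9 others (3.71 to 5.33 CPM for Cd36 and 157 to 166 CPM for the endothelial sum).

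Mfsd2a (gene 76574, chromosome 4, 122946850 to 122961188) encodes a sodium-dependent transporter of lysophosphatidylcholine that carries long-chain fatty acids and is induced in the fasting liver. It was at 3.08, 3.2 and 3.21 CPM in A0, at 11, 5.99 and 21 in A10, at 6.64, 77.5 and 19.8 in BA0 and at 28.7, 28.5 and 20 in BA10. The A0 libraries were alike and the lowest, whereas BA0 ranged from 6.64 to 77.5 CPM. The log2 fold change was 3.45 in BA0 vs A0 (SE 0.77, adjusted p = 0.0341), 3.02 in BA10 vs A0 (SE 0.76, adjusted p = 0.0336), 2.24 averaged over water and AOS (SE 0.51, adjusted p = 0.0411) and 2.00 in A10 vs A0 (SE 0.76, adjusted p = 0.136). Without BA0 replicate 2, the value of BA0 vs A0 was 2.06 (adjusted p = 0.085) and the average 1.54 (adjusted p = 0.0551).

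With the trends removed Mfsd2a was still called in BA10 vs A0 (3.16, adjusted p = 0.0432) and averaged (2.30, adjusted p = 0.0407), but not in BA0 vs A0 (3.57, adjusted p = 0.065). The calls were lost with limma voom, without A0 replicate 1 or 2, without BA10 replicate 1 or 3, in BA10 vs A0 also without A0 replicate 3 or BA10 replicate 2, in BA0 vs A0 also without BA0 replicate 2 or 3 and with only the groups compared, and for the average without any library but A10 replicate 3 and BA0 replicate 1 (1.24 against A10 alone, adjusted p = 0.68, and adjusted p = 0.0505 to 0.68 over the alternatives that ended a call). The 5 genes with the most similar profile over the 12 libraries, by Pearson correlation of log2 CPM as a description, were Nus1 (0.954), Tstd2 (0.948), Fundc1 (0.942), 2610002M06Rik (0.941) and LOC100862473 (0.929). Apoa4, an apolipoprotein of triglyceride-rich particles, had the highest level of this role (324 RPKM on average), with 227 to 692 CPM in A0 and 402 to 910 CPM in BA0 (log2 fold change 0.41, adjusted p = 0.527). Vldlr, the very low density lipoprotein receptor, had 1.05 in A10 vs A0 (adjusted p = 0.153).

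Of the 3 regulators Angptl8 fell, and Srebf1 and Mlxipl were not called. Angptl8 (gene 624219, chromosome 9, 21835510 to 21837347) encodes a secreted protein that rises with feeding and insulin. It was at 41.3, 37.6 and 42.2 CPM in A0, at 12.9, 34.6 and 11.8 in A10, at 9.32, 16.6 and 6.94 in BA0 and at 17.2, 12.5 and 9.86 in BA10. All 9 libraries of the other groups were below the A0 libraries, although A10 replicate 2, at 34.6 CPM, was close to them. The log2 fold change was -1.88 in BA0 vs A0 (SE 0.42, adjusted p = 0.0339), -1.62 in BA10 vs A0 (SE 0.41, adjusted p = 0.0344), -1.23 averaged over water and AOS (SE 0.29, adjusted p = 0.0449) and -1.03 in A10 vs A0 (SE 0.40, adjusted p = 0.144). In BA10 vs BA0 it was 0.27 (interval -0.64 to 1.17), and for busulfan against A10 alone -0.72 (adjusted p = 0.664).

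With the trends removed the values of Angptl8 were -1.50, -1.27 and -1.08 (adjusted p = 0.121, 0.108 and 0.0793). The calls were lost without A0 replicate 1 or 2 and without any 1 library of the busulfan group compared, and the average without any library but A10 replicate 3 and BA0 replicate 2 (adjusted p = 0.0509 to 0.664 over the alternatives that ended a call). The genes most similar to Angptl8 over the 12 libraries were Dhrs3 (Pearson correlation 0.949), Sat2 (0.924), Zmynd8 (0.908), Selenoo (0.906) and Nufip1 (0.9), given as a description. Mlxipl, which encodes ChREBP, was at 218 to 319 CPM in the 12 libraries and had the highest level of the role (79 RPKM). Srebf1, which encodes SREBP-1, was at 74.8 to 207 CPM, with log2 fold changes of -0.03 in BA0 vs A0 and 0.05 in BA10 vs BA0.

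The rest of the fat pathway was read in 69 other genes, of which 68 were in the table and 64 were tested. In BA0 vs A0 Apob rose and Bscl2 and Lipe fell, and the same 3 genes were called in A10 vs A0. These were 4.69% of the 64 genes in each comparison, compared to 6.38% and 3.64% of all genes. The medians were -0.12 and -0.07 (0.03 over all genes). In BA10 vs A0 Apob, Fabp4 and Angptl4 rose and Lipe, Bscl2 and Abhd5 fell, while averaged over water and AOS Lipe and Ces1d fell. The shares, 9.38% and 3.12%, were near those of all genes (10.1% and 3.27%). With upper-quartile factors the splits were 1 higher and 6 lower in BA0 vs A0 and 2 higher and 7 lower in BA10 vs A0, and with RLE factors 1 higher and 1 lower in A10 vs A0. Over all genes these settings gave 415 higher and 679 lower, 645 and 872, and 175 and 180. In BA10 vs BA0, BA10 vs A10 and the AOS effect with minus without busulfan edgeR called 0 of the 64 genes (1, 9 and 17 at an unadjusted p under 0.05), limma voom 0, and DESeq2 0, 0 and 3. Without A0 replicate 1 or 2 the counts were 0 in BA0 vs A0 and in A10 vs A0 and 1 in BA10 vs A0 and the average, and without A0 replicate 3 they were 12, 11, 9 and 8. Over all genes, without A0 replicate 3, 1125, 986, 1337 and 561 were called higher and 751, 689, 818 and 248 lower.

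Lipe is the hormone-sensitive lipase gene. It was at 14.5, 11.8 and 11 CPM in A0, at 8.23, 7.7 and 8.78 in A10, at 6.76, 6.03 and 5.85 in BA0 and at 6.91, 5.59 and 7.38 in BA10. The 6 busulfan libraries were below the 3 A10 libraries, which were below the A0 libraries. Its log2 fold change was -1 in BA0 vs A0 (SE 0.15, adjusted p = 0.0154) and -0.66 averaged over water and AOS (SE 0.10, adjusted p = 0.012). Apob, the structural protein of very low density lipoprotein, was at 4280 to 5970 CPM in A0 and at 7640 to 8540 CPM in BA0 (0.67, SE 0.14, adjusted p = 0.0292). Bscl2, which encodes seipin of the droplet neck, was at 36.3 to 43.2 CPM in A0 and at 28.3 to 32.6 CPM in BA0 (-0.43, SE 0.10, adjusted p = 0.0357). Ces1d, a carboxylesterase that mobilizes stored triglyceride, was at 762 to 860 CPM in A0, 599 to 911 CPM in A10, 462 to 600 CPM in BA0 and 467 to 679 CPM in BA10 (average -0.55, SE 0.12, adjusted p = 0.041). When the trends were removed, Lipe was still called in BA0 vs A0 and Lipe and Ces1d in the average (0.353% and 2.32% of all genes).

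A list of 20 genes of the fasting and insulin response was read beside the 33 genes. Of the 20 genes edgeR called 0 in BA0 vs A0 and in A10 vs A0 (3 and 4 at an unadjusted p under 0.05, DESeq2 1 and 1, limma voom 0), compared to 6.38% and 3.64% of all genes. Over all genes DESeq2 called 872 higher and 774 lower in BA0 vs A0, and 690 and 624 in A10 vs A0. In BA10 vs A0, 5 of the 20 rose (25%, compared to 10.1% of all genes). Averaged over water and AOS 3 rose, namely Igfbp1, G6pc and Irs2 (15%, compared to 3.27%). After removal of the trends 4 were called in each of these (3.88% and 2.32% of all genes), without A0 replicate 1 only Igfbp1, and without A0 replicate 2 Igfbp1 and Irs2. With each of the 12 libraries left out in turn the counts ranged from 1 to 6 in BA10 vs A0 and from 1 to 5 averaged. Over all genes these fits ranged in BA10 vs A0 from 199 higher and 43 lower (without A0 replicate 2) to 1337 and 818 (without A0 replicate 3). For the average they ranged from 73 and 17 (without A10 replicate 2) to 716 and 373 (without A10 replicate 3). In BA10 vs A10 Igfbp1, which encodes a binding protein that insulin represses, was the only one that edgeR called (DESeq2 called 4, and edgeR 0 to 4 with 1 library left out). Over all genes DESeq2 called 120 higher and 36 lower there. With 1 library left out edgeR called from 0 and 0 (without A10 replicate 1) to 82 and 19 (without A10 replicate 3). The A10 libraries held 22.2, 19.9 and 55.5 CPM of Igfbp1, and the BA10 libraries 338, 354 and 231 CPM. This was a difference of 3.24 on the log2 scale (SE 0.43, adjusted p = 0.0203). The A0 libraries held 15.1, 31.5 and 25.9 CPM of Igfbp1. The BA0 libraries, with busulfan alone, held 41.5, 63.1 and 86.9 CPM, all below the BA10 libraries. In BA10 vs BA0 edgeR called 0 of the 20 genes (3 at an unadjusted p under 0.05), compared to 0.0543% of all genes. The list summed to 4040 to 4820 CPM in A0, 4290 to 6380 CPM in A10, 4490 to 5280 CPM in BA0 and 5600 to 6410 CPM in BA10. Of 16 tested clock genes Per1 and Per2 rose averaged over water and AOS (1.47 and 1.06, adjusted p = 0.00961 and 0.0157), which was 12.5% compared to 3.27% of all genes, and both were still called with the trends removed. Clock rose in A10 vs A0 (6.25%, compared to 3.64%), Clock and Per1 in BA0 vs A0 (12.5%, compared to 6.38%), and Clock, Per1 and Per2 in BA10 vs A0 (18.8%, compared to 10.1%). With the trends removed 0 clock genes were called in A10 vs A0 and BA0 vs A0 (3 and 4 at an unadjusted p under 0.05), and Per1 and Per2 in BA10 vs A0. Without A0 replicate 1 or 2 the counts were 0, 0 and 2 (Clock and Per1). Over all genes both of these fits called 1 higher and 0 lower in A10 vs A0 and 2 and 2 in BA0 vs A0. In BA10 vs A0 they called 210 and 51 (without A0 replicate 1) and 199 and 43 (without A0 replicate 2). The part of feeding or of the hour of collection in the 8 genes called was not tested.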

How the data were processed

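Liver mRNA in 12 libraries, 3 in each of 4 groups, was analysed. Per the paper, RNA was enriched with oligo(dT) beads and reads were aligned with SOAPaligner (build mm10 in the submitters' notes). No source used here names the annotation or the counting tool. The deposited table holds estimated counts and RPKM values that the authors made per gene and library, and 8 columns of group means, which were not used (0 per-sample columns were left out). Whole numbers (within 1e-06) made up 78.6% to 80.3% of each library's values, and the rest were rounded. RPKM was used only for levels between genes.

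Genes kept by filterByExpr (minimum count 10, here 0.593 CPM, and 15 in total) were fitted by edgeR 4.0.16 (R 4.3.3, quasi-likelihood, TMM, 4 group means, 8 residual and 3.47 prior degrees of freedom, common biological coefficient of variation 0.203), with Benjamini-Hochberg adjustment over 12896 genes and calls at an adjusted p under 0.05. SE was derived from the log2 fold change and the F statistic of the quasi-likelihood test, and intervals from that SE with a t quantile. The authors' DEGseq test was not used, since it does not model the spread between libraries, and the authors' limits were an alternative. So were upper-quartile and RLE factors, DESeq2 1.42.0, limma voom 3.58.1, no filter, the replicate number as a block, only the groups compared, each library left out, and removal of splines over gene length and GC content (GENCODE M21, 91.6% of genes matched, 12183 genes in the fit). Leaving out A0 replicates 1 and 2 together, the contrast with A10 alone, and the alternatives for the endothelial, fasting and clock lists were chosen after seeing the data. Counts out of 21 alternatives, and the alternatives named for each gene as ending a call, leave out the authors' limits. The tests were tested on simulated data. Libraries of a group differed by more than sampling noise, and p-values measure the spread between these libraries.

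The genes, the 11 lists and the tests were chosen with earlier results of these data known. Named are genes called in any of 7 contrasts, the most abundant gene and that with the smallest p of each role, and up to 4 called genes with the smallest p per list and contrast. Fasn, Pnpla3, Elovl6, Acaca, Dgat1, Pnpla2, Vldlr and Pck1 are named because of their values, seen beforehand. Positions are those of GENCODE M21 in mm10. The metabolite and protein measurements were not analysed.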

Additional observations from a re-analysis of the deposited data

How the results depend on the processing

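No call of the 8 genes reversed under any alternative. Wherever any of the 33 genes was called, leaving out any library but A0 or A10 replicate 3 also lowered the counts over all genes. Counts are of the 33 genes and then of the 64 other fat pathway genes. The limits of the paper were applied to the edgeR values, not to the authors' DEGseq test. At these limits almost no gene of the 12896 was called: 1 in BA0 vs A0, 1 in A10 vs A0, 2 in BA10 vs A0 and 0 for the average. A count of 0 at these limits therefore says little about the fat genes. In BA0 vs A0 (5 and 3 called) they were 0 and 0 at the limits of the paper (adjusted p of 0.001, log2 fold change of 1), 0 and 1 with the trends removed, 2 and 1 with only the groups compared, and 0 and 0 without A0 replicates 1 and 2. The other genes numbered 7 with upper-quartile factors and 12 with DESeq2. Over all genes DESeq2 called 872 higher and 774 lower in BA0 vs A0 and 690 and 624 in A10 vs A0. It called 557 and 324 for the average and 171 and 107 for the difference of the AOS effects. In A10 vs A0 (2 and 3) both were 0 without a filter, at the limits of the paper, with the trends removed, with only the groups compared, and without A0 replicates 1 and 2. The other genes numbered 12 with DESeq2, and limma voom called 1 of the 33. In BA10 vs A10 (0 and 0) DESeq2, and edgeR on only the groups compared, called 1 of the 33, Lpin1. Over all genes these 2 settings called 120 higher and 36 lower, and 3 and 1. In BA10 vs A0 (8 and 6) the counts were 0 and 0 at the limits of the paper and without A0 replicates 1 and 2, and 2 and 3 with the trends removed. For the average (6 and 2) they were 0 and 0 at those limits, without A0 replicates 1 and 2, and against A10 alone, DESeq2 called 6 other genes, and 2 of the 33 were called with the trends removed. DESeq2 called 3 other genes for the difference of the AOS effects (0 and 0). Leaving out 1 library gave 0 to 6 and 0 to 12 in BA0 vs A0, 0 to 2 and 0 to 11 in A10 vs A0, 0 and 0 in BA10 vs BA0, 0 to 1 and 0 to 1 in BA10 vs A10, 1 to 8 and 1 to 10 in BA10 vs A0, 0 to 6 and 1 to 8 for the average, and 0 and 0 to 1 for the difference of the AOS effects, that with busulfan minus that without it. Replicate numbers did not pair the libraries. Of 18 same-numbered pairs 3 had a correlation over 0.1 (-0.074 to 0.142), and 5 of 12 libraries were closest to their own number. With the replicate block 5 other genes were called in BA0 vs A0, 7 in A10 vs A0, and 2 of the 33 for the average, where Plin4, Lpin1, Cd36 and Mfsd2a lost their calls (adjusted p = 0.0509 to 0.0737), as Lpin2 did in BA10 vs A0 (0.0594). The cause of these changes was not tested. With 3 libraries a group, genes with a wide spread between libraries, such as Pnpla3 (SE 1.07 in BA0 vs A0), had wide intervals.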
